A study of Dimocarpus longan with 9 samples.

Results

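Root VS stem compared the gene levels of 2 organs of the longan tree (Dimocarpus longan, an evergreen fruit tree), the root and the stem, with particular attention to the genes that encode transcription factors. The comparison rested on 2 of the 9 RNA sequencing libraries of the series, both from cultivar “SJM”, with 1 library for root and 1 for stem. No treatment, age or time point was given for either organ, and whether plants were pooled is not given in the sources used here. The study's methods name mature fruit and no stem in their list of tissues. Its results and the sample labels name a stem, and these are followed. With 1 library per organ the spread between plants is unknown, so each difference is described without a test and compares these libraries.

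The stem carries leaves and flowers, and its vascular tissue moves water, minerals and sugars, whereas the root takes up water and nutrients and branches by forming lateral roots. Transcription factors bind DNA near genes and raise or lower their transcription. They are mostly, but not always, sorted into types by the domain that binds DNA. In Arabidopsis, members of the MYB, bHLH, HB (homeobox) and LOB types shape root tissues such as root hairs and lateral roots, whereas many ERF, WRKY and Tify members act in hormone, wounding and defence responses.

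Each level is an FPKM value, which counts the sequenced fragments of a gene per kilobase of exon, relative to all fragments mapped in that library. A difference is given as log2(FPKM + 1) in root minus log2(FPKM + 1) in stem, so a positive value means a higher level in root. Differences of genes at low FPKM are understated on this scale. Higher in an organ means that the difference reached 1, that is 2-fold on this scale, and only a gene at 1 FPKM or more in root or stem can reach that limit. Such genes are called measured genes below.

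The table listed 30014 genes, of which 20203 were measured in root or stem and 9811 were below 1 FPKM in both organs. Total FPKM was 1011820 in root and 929151 in stem, and the 10 highest genes held 9.30% of the root total and 6.12% of the stem total. Among 710 genes with low FPKM values, the most frequent log2 ratio of root to stem was 0.08. If such values stand for equal fragment counts, the stem library was deeper by that much. The median log2 ratio over genes at 1 FPKM or more in both organs was 0.07. The 2 values are close, so a difference in depth was not told apart from a general shift between the libraries. The fragment count behind a single gene is unknown, so no counting interval can be given. Gene IDs carry no symbols, and the root label was checked against the YABBY type. Its Arabidopsis members act in lateral organs of the shoot and not in roots. All 4 measured YABBY genes were higher in stem, and the other 2 genes of this type were listed at 0 in both organs. The summed YABBY level was 5.33 FPKM in root, 75.5 FPKM in stem, 72.5 FPKM in pericarp and 568 FPKM in seed. This check therefore sets root apart but cannot tell a stem from a part of the fruit. The single LFY gene, of a type that acts in floral meristems, was at 0.62 FPKM in root and 0.12 FPKM in stem.

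Of the measured genes, 4504 (22.3%) were at least 2-fold higher in root and 3604 (17.8%) were at least 2-fold higher in stem, so that 40.1% passed the limit in either direction. At a limit of 4-fold, 1989 genes (9.85%) were higher in root and 1589 genes (7.87%) were higher in stem, together 17.7%. The excess on the root side widened among the largest differences, with 110 genes higher in root and 65 higher in stem at 64-fold or more. The median difference over all measured genes was 0.07, and the quartiles were -0.63 and 0.86. A fall in the number of cells of a type and a fall in RNA per cell cannot be told apart in such bulk tissue.

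The study listed 1611 transcription factor genes in 64 types, and 1529 of them were found in the table. In root or stem 1155 of them were measured, and the remaining 374 were below 1 FPKM in both organs. Higher levels in root were found for 325 of the measured transcription factor genes (28.1%) and higher levels in stem for 319 (27.6%), beside 22.3% and 17.8% of all measured genes. The other 511 differed by less than 2-fold, and with median-ratio scaling of the libraries the counts were 312 in root and 331 in stem. Both directions were therefore more frequent than among all genes, and the median difference was 0.01 with quartiles of -1.16 and 1.16. At the 4-fold limit the order of the organs turned, with 149 transcription factor genes higher in root and 186 higher in stem. The plot of root against stem levels shows this fan of transcription factor genes on both sides of the line of equal levels.

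**Figure D1:**
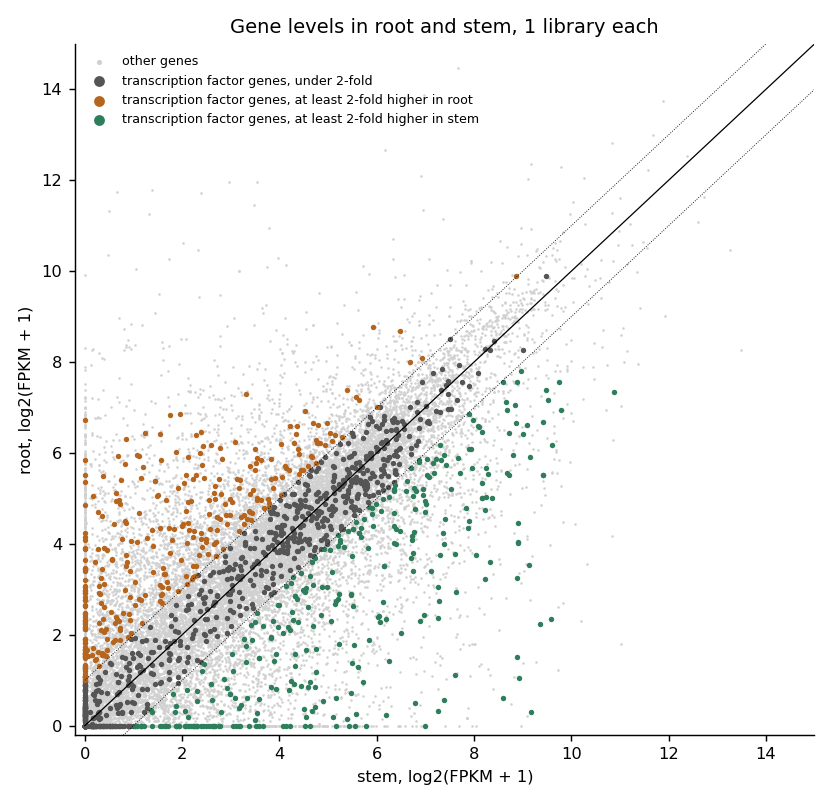
Level of each gene in root (vertical axis) against stem (horizontal axis), both as log2(FPKM + 1), with 1 library per organ. Grey points are genes outside the list of transcription factors, coloured points are the 325 transcription factor genes higher in root and the 319 higher in stem, dark points are transcription factor genes under 2-fold, the solid line marks equal levels and the dotted lines mark 2-fold. The green points reach far to the right, where stem levels are high.

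The summed level of the transcription factor genes was 36448 FPKM in root and 60359 FPKM in stem, a 1.66-fold higher sum in stem. This was 3.60% of the total FPKM of root and 6.50% of that of stem. Among the other 7 tissues the sum was 34109 FPKM in seed and 34160 FPKM in pulp, close to root. In flower bud, young fruit, flower, leaf and pericarp it ran from 55323 to 73941 FPKM, so stem lay with these tissues and root with pulp and seed.

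The direction of the difference among transcription factor genes went with their level. Of the 218 transcription factor genes whose higher level lay from 1 to 5 FPKM, 38.1% were higher in root and 21.6% in stem, beside 23.3% and 19.4% of all genes in that class. From 100 to 500 FPKM, 10.3% of the 146 transcription factor genes were higher in root and 59.6% were higher in stem. For all 2207 genes of that class the shares were 23.2% and 26.6%. At 500 FPKM or more, 17 of 20 transcription factor genes were higher in stem and 1 was higher in root, while 127 and 111 of all 386 genes of this class were higher in stem and in root. The highest transcription factor levels of these libraries thus lay mostly in stem, while the highest levels of all genes were spread over both organs.

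**Figure D2:**
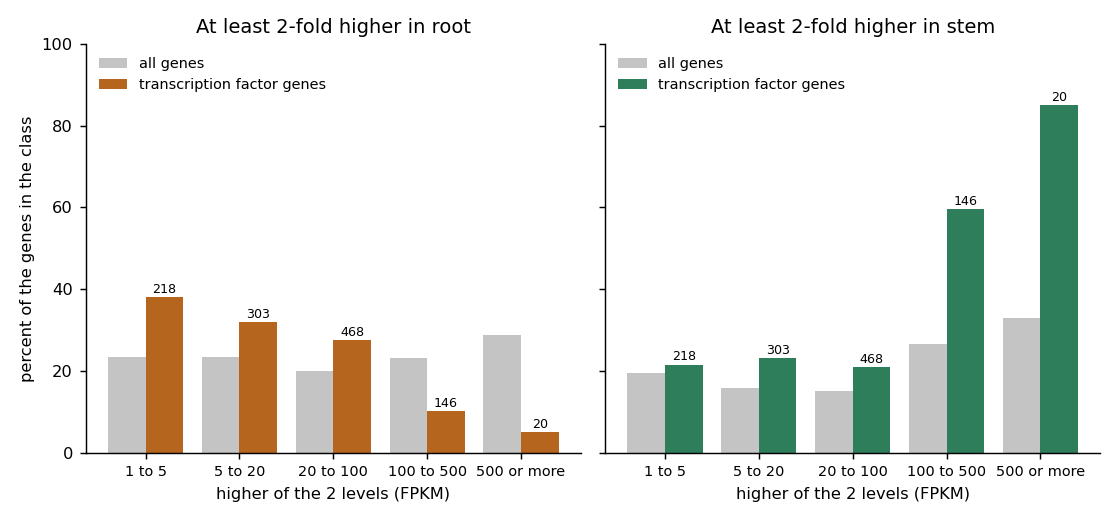
Percent of genes at least 2-fold higher in root (left) and in stem (right), by the higher of the root and stem levels in FPKM. Grey bars are all measured genes and coloured bars are transcription factor genes, with the number of transcription factor genes above each bar. In the classes from 100 FPKM upward the stem share of transcription factor genes was 59.6% and 85.0%, and their root share was 10.3% and 5.0%.

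Among these 20 genes, 9 were of the ERF type. The highest of them, Dlo_025714.2, was at 162 FPKM in root and 1874 FPKM in stem, a difference of -3.52. It was also higher in stem than in any other tissue. Dlo_018830.1, another ERF gene, was at 947 FPKM in root and 716.4 FPKM in stem and did not reach the limit. The 1 gene on the root side was the homeobox gene Dlo_003442.1, at 945 FPKM in root and 467 FPKM in stem, just past the limit with a difference of 1.02. With median-ratio scaling its difference was 0.95, under the limit, and no transcription factor gene of this class was higher in root. High stem levels also came from the zinc-finger (C2H2) gene Dlo_033797.1, with 121 FPKM in root and 887 FPKM in stem. The PLATZ gene Dlo_016733.1 was at 187 FPKM in root and 859 FPKM in stem, and the RAV gene Dlo_016593.1 at 166 and 712 FPKM. The 2 ERF genes Dlo_007342.1 and Dlo_010824.1 had the same values in all 9 tissues (44.7 FPKM in root and 686 FPKM in stem), so their reads may have been shared and they may not be separate measurements.

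Types differed in how their genes were divided between the organs. Of the 27 types with 10 or more measured genes, 12 had more genes higher in root, 13 had more genes higher in stem and 2 had equal numbers. The LOB, G2-like, HB and MYB-related types leaned most to root by the difference between the shares, and the SBP, ERF, B3 and HSF types leaned most to stem. With up to 89 genes in a type and no replicate, these counts describe the libraries only. The plot of types sets them beside the shares of all genes.

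**Figure D3:**
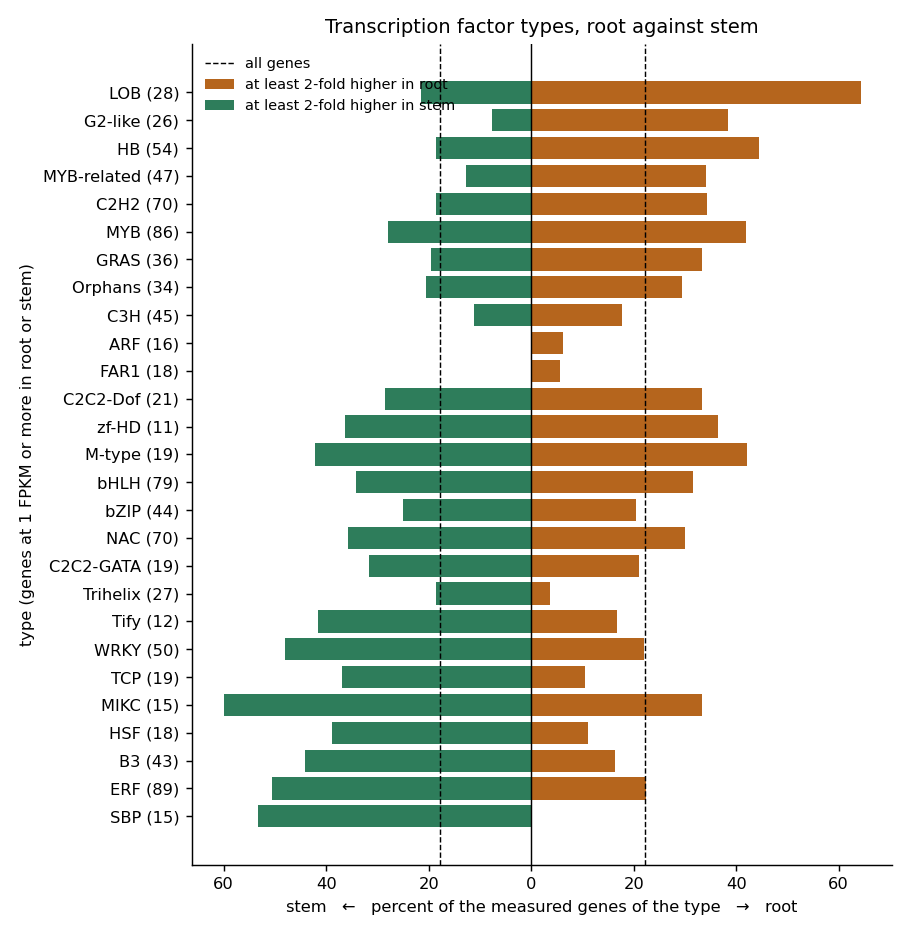
Percent of the measured genes of each transcription factor type that were at least 2-fold higher in root (brown, to the right) and in stem (green, to the left), for the 27 types with 10 or more measured genes, whose number is given in parentheses. Dashed lines mark the shares of all measured genes, 22.3% in root and 17.8% in stem. LOB stands at the root end with 64.3% and SBP at the stem end with 53.3%.

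On the stem side, the ERF type, which carries a single AP2 domain and includes factors of ethylene and stress responses, had 89 measured genes. Of these, 45 were higher in stem and 20 were higher in root, with a median difference of -1.06. At 4-fold the counts were 36 in stem and 6 in root. The summed ERF level was 3212 FPKM in root and 12776 FPKM in stem, 3.98-fold higher in stem, and only pericarp had a higher sum (14504 FPKM). Root had the lowest ERF sum of the 9 tissues, just under seed at 3332 FPKM.

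Of the 15 transcription factor genes with the largest difference toward stem, 9 were ERF genes. Dlo_005616.1 led them with 0.24 FPKM in root and 579 FPKM in stem, a difference of -8.87. In the remaining tissues it ran from 6.36 FPKM in pulp to 760 FPKM in pericarp, so root was the single library in which it was close to 0. Dlo_007317.1 was at 0.52 FPKM in root and 386 FPKM in stem, and Dlo_007316.1 was at 1.07 FPKM in root and 484 FPKM in stem. Both had their highest level in pericarp, at 1157 and 1109 FPKM. Dlo_007513.1 was at 4.11 FPKM in root and 765 FPKM in stem, and reached 1603 FPKM in leaf. Dlo_030665.1, at 3.74 FPKM in root and 652 FPKM in stem, was higher in stem than in all other tissues. Dlo_028757.1 was listed at 0 in root and was at 127 FPKM in stem. Dlo_005618.1 (0.25 FPKM in root, 152 FPKM in stem), Dlo_017387.1 (1.17 and 195 FPKM) and Dlo_031750.1 (0.42 and 109 FPKM) completed the group. All 9 were thus below 5 FPKM in root and above 100 FPKM in stem.

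A smaller set of ERF genes went the other way. Dlo_028566.1 was at 44.6 FPKM in root and 3.24 FPKM in stem, a difference of 3.43. Dlo_031619.1 and Dlo_031620.1 shared the values of 40.7 FPKM in root and 1.73 FPKM in stem and were equal in every tissue, so they may count 1 measurement doubly. The highest root level among these 3 genes remained under the stem levels of the ERF genes above.

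**Figure D4:**
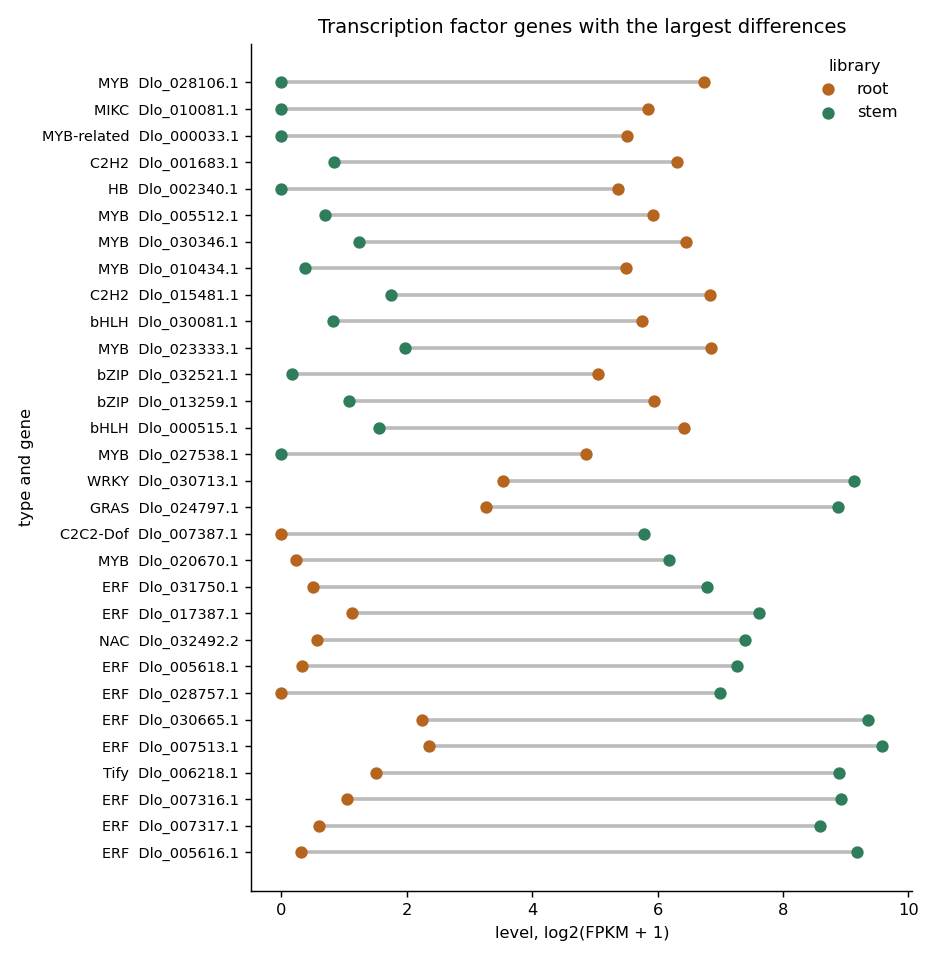
Levels in root (brown) and stem (green), as log2(FPKM + 1), of the 15 transcription factor genes with the largest difference in each direction, ordered from the largest difference toward root at the top to the largest toward stem at the bottom. Each row is 1 gene with its type, and the grey line spans the difference. The stem levels of the 15 lower genes reach beyond 9 on this scale, and the root levels of the 15 upper genes stay below 7.

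WRKY factors, known for roles in defence and senescence, followed the same side. Of 50 measured WRKY genes, 24 were higher in stem and 11 in root, the median difference was -0.82, and the sum was 1628 FPKM in root and 5315 FPKM in stem. Dlo_030713.1 was at 10.6 FPKM in root and 559 FPKM in stem, a difference of -5.59. Dlo_009865.1 had 15.3 FPKM in root and 477 FPKM in stem. Dlo_008610.1 had 11.2 FPKM in root and 320.1 FPKM in stem. All 3 were highest in pericarp. Toward root, Dlo_027361.1 was at 41.4 FPKM in root and 0.68 FPKM in stem, and its next highest level was 32.8 FPKM in flower bud.

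The Tify type includes the JAZ repressors, which hold jasmonate responses in check. Of 12 measured Tify genes, 5 were higher in stem and 2 in root, and the sum was 806 FPKM in root and 2141 FPKM in stem. Dlo_006218.1 was at 1.83 FPKM in root and 473 FPKM in stem, a difference of -7.39, and stem was its highest tissue, ahead of pericarp with 451 FPKM. Dlo_023118.1 was at 102 FPKM in root and 682 FPKM in stem. Dlo_025200.1 (1.69 FPKM in root, 75.4 FPKM in stem) and dlo_036449.1 (4.43 and 125 FPKM) were highest in leaf. Against this direction, Dlo_013514.1 was at 64.4 FPKM in root and 2.67 FPKM in stem, so the type was divided and its median difference was 0.01.

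NAC genes, some of which switch on secondary cell walls in Arabidopsis, were divided more evenly. Of 70 measured NAC genes, 25 were higher in stem and 21 in root, beside background shares of 17.8% and 22.3%. Their sum was 2123 FPKM in root and 4651 FPKM in stem. The largest difference was that of Dlo_032492.2, with 0.48 FPKM in root and 166 FPKM in stem, and pericarp was higher still at 273 FPKM. Dlo_028054.1 was at 70.8 FPKM in root and 777 FPKM in stem, and Dlo_006299.1 at 59.6 FPKM in root and 568 FPKM in stem. In the other direction Dlo_022129.1 was at 56.7 FPKM in root and 1.94 FPKM in stem, and Dlo_030395.1 at 58.8 and 3.32 FPKM. The root-higher NAC genes had a median of 7.31 FPKM in root, and the stem-higher ones a median of 52.2 FPKM in stem.

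Several further types leaned to stem at lower levels. None of the 15 measured SBP genes, whose Arabidopsis relatives promote the change from juvenile to adult growth, was higher in root, and 8 (53.3%) were higher in stem. Dlo_022368.1 was at 0.45 FPKM in root and 29.0 FPKM in stem, and Dlo_028807.2 at 0.34 and 25.5 FPKM. Of 43 measured B3 genes 19 were higher in stem and 7 in root, with Dlo_024404.2 at 0.96 FPKM in root and 23.9 FPKM in stem. Heat shock factors (HSF) had 7 of 18 genes higher in stem and 2 in root. The TCP type, which includes regulators of shoot branching, had 7 of 19 genes higher in stem and 2 in root, but 2 in each direction with a pseudocount of 5 FPKM. The Trihelix type had 5 of 27 higher in stem, close to the share of all genes, and 1 in root.

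MADS-box genes of the MIKC type, best known from flowering, held large differences of both signs. Of 15 measured genes, 9 were higher in stem and 5 in root, leaving 1 under the limit. Dlo_010081.1 was at 56.6 FPKM in root and was listed at 0 in stem, and its highest level in the other 7 tissues was 0.45 FPKM in seed. Dlo_010768.1 was at 17.9 FPKM in root and was likewise listed at 0 in stem. Conversely, Dlo_009139.1 was listed at 0 in root and was at 41.9 FPKM in stem and 126 FPKM in leaf. Dlo_005595.1 was at 1.44 FPKM in root and 48.0 FPKM in stem. The M-type MADS genes were divided equally, with 8 of 19 in each direction and 3 in root against 6 in stem at 4-fold, and of the 65 M-type genes in the table only these 19 were measured.

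On the root side, the MYB type was the largest group. MYB factors include regulators of phenylpropanoid and flavonoid synthesis, of secondary walls and of epidermal cell fate. Of 86 measured MYB genes, 36 were higher in root (41.9%) and 24 in stem (27.9%), and at 4-fold the counts were 28 and 16. The summed level nevertheless was higher in stem, with 2099 FPKM in root and 2785 FPKM in stem. The genes higher in root had a median of 21.3 FPKM in root, and the genes higher in stem a median of 63.6 FPKM in stem.

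Of the 15 transcription factor genes with the largest difference toward root, 6 were MYB genes. Dlo_028106.1 was at 106 FPKM in root and was listed at 0 in stem, with a difference of 6.73, the largest of all transcription factor genes toward root. Its next highest level was 10.4 FPKM in young fruit. Dlo_023333.1 was at 115 FPKM in root and 2.90 FPKM in stem, and Dlo_030346.1 was at 86.4 FPKM in root and 1.36 FPKM in stem. Dlo_005512.1 had 60.03 FPKM in root and 0.61 FPKM in stem, and reached 39.2 FPKM in young fruit. Dlo_010434.1 (44.0 FPKM in root, 0.30 FPKM in stem) and Dlo_027538.1 (27.8 FPKM in root, listed at 0 in stem) belonged to the same set. All 6 were highest in root among the 9 tissues, as were 30 of the 36 MYB genes higher in root. Root values helped to choose these genes, and 59.8% of all genes higher in root were highest there. Toward stem, Dlo_020670.1 was at 0.18 FPKM in root and 71.9 FPKM in stem, Dlo_012270.1 was at 0.19 FPKM in root and 46.8 FPKM in stem, and Dlo_010316.1 was listed at 0 in root and was at 46.2 FPKM in stem.

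Of the MYB-related genes, 16 of 47 were higher in root and 6 in stem. Dlo_000033.1 was at 44.7 FPKM in root and listed at 0 in stem, and it exceeded 1 FPKM elsewhere in leaf alone, at 1.04 FPKM. Dlo_033160.1 was at 82.9 FPKM in root and 3.90 FPKM in stem. A MYB-related gene with a strong opposite difference was Dlo_025451.1, at 21.8 FPKM in root and 239 FPKM in stem.

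LOB genes, named for lateral organ boundaries and including activators of lateral root formation in Arabidopsis, had the highest share on the root side. Of 28 measured genes, 18 were higher in root (64.3%) and 6 in stem (21.4%), with a median difference of 1.44. Most of these differences were between 2- and 4-fold, since 6 genes higher in root and 5 higher in stem passed the 4-fold limit. Dlo_005903.1 was at 87.3 FPKM in root and 4.26 FPKM in stem, and its levels of 94.4 to 100.2 FPKM in pulp, pericarp and seed were above root. Dlo_002146.1 was at 20.6 FPKM in root and 0.52 FPKM in stem, and Dlo_005796.1 was at 9.61 FPKM in root and listed at 0 in stem. Toward stem, Dlo_030338.1 was listed at 0 in root and was at 17.7 FPKM in stem, and Dlo_010136.1 was at 0.81 FPKM in root and 25.7 FPKM in stem. Dlo_013132.1 had the highest stem level of these 3 genes, with 12.9 FPKM in root and 106 FPKM in stem, its highest tissue.

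Homeobox (HB) genes include regulators of meristems and of vascular and epidermal tissue. Of 54 measured genes, 24 were higher in root (44.4%) and 10 in stem (18.5%), and the sum was 3531 FPKM in root and 2876 FPKM in stem. Dlo_002340.1 was at 40.2 FPKM in root and listed at 0 in stem, with at most 6.18 FPKM in any other tissue. Dlo_031991.1 was at 42.7 FPKM in root and 1.22 FPKM in stem. The largest difference toward stem was that of Dlo_018410.1, at 44.5 FPKM in root and 420.3 FPKM in stem.

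Zinc-finger genes of the C2H2 type had 24 of 70 genes higher in root (34.3%) and 13 in stem (18.6%), yet the sum was 2102 FPKM in root and 3531 FPKM in stem. Dlo_015481.1 was at 114 FPKM in root and 2.37 FPKM in stem, and Dlo_001683.1 was at 78.7 FPKM in root and 0.79 FPKM in stem. These levels stood against 20.9 FPKM in root and 476 FPKM in stem for Dlo_002525.1. The root excess of this type was lost without a pseudocount among genes at 1 FPKM or more in both organs, where 12 genes were higher in root and 13 in stem. The G2-like type, which includes phosphate starvation regulators in Arabidopsis, had 10 of 26 genes higher in root (38.5%) and 2 in stem (7.69%).

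Of the GRAS genes, a type that holds the DELLA growth repressors and the radial patterning factors SHORT-ROOT and SCARECROW of Arabidopsis, 12 of 36 were higher in root and 7 in stem. Dlo_031938.1 was at 11.5 FPKM in root and listed at 0 in stem. The largest GRAS difference nevertheless was toward stem, where Dlo_024797.1 was at 470.1 FPKM and root at 8.56 FPKM. The counts were 7 and 7 without a pseudocount among genes at 1 FPKM or more in both organs.

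The bHLH type was divided nearly evenly, with 25 of 79 genes higher in root and 27 in stem. This type includes root hair regulators and jasmonate response factors in Arabidopsis. Dlo_000515.1 was at 84.2 FPKM in root and 1.93 FPKM in stem, and Dlo_030081.1 was at 52.9 FPKM in root and 0.76 FPKM in stem. In contrast, Dlo_005407.1 was at 0.64 FPKM in root and 43.7 FPKM in stem, and Dlo_027394.1 at 0.11 and 40.7 FPKM. The bZIP type had 9 of 44 genes higher in root and 11 in stem, and 4 in each direction at 4-fold. Its genes Dlo_013259.1, at 60.7 FPKM in root and 1.11 FPKM in stem, and Dlo_032521.1, at 32.1 FPKM in root and 0.12 FPKM in stem, were among the 15 largest differences toward root.

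The Dof and GATA zinc-finger types were divided between both organs at moderate levels. Of 21 measured C2C2-Dof genes 7 were higher in root and 6 in stem, and Dlo_007387.1 was listed at 0 in root and was at 54.1 FPKM in stem. Dlo_033507.1 was at 15.1 FPKM in root and 167 FPKM in stem. Of 19 C2C2-GATA genes 4 were higher in root and 6 in stem, led by Dlo_028813.1 with 9.51 FPKM in root and 106 FPKM in stem. The zf-HD type had 4 of 11 genes in each direction, and 2 in root and 3 in stem at 4-fold.

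Other types stood apart by the small number of genes past the limit. The auxin response factors (ARF) had 1 of 16 genes higher in root and none in stem. The exception, Dlo_030332.1, was at 70.0 FPKM in root and 4.40 FPKM in stem. FAR1 genes, which act in phytochrome signalling in Arabidopsis, had 1 of 18 genes past the limit, at 4.04 FPKM in root and listed at 0 in stem (dlo_038097.1). The C3H type had 8 of 45 genes higher in root and 5 in stem, both under the shares of all genes, and 8 in each direction with median-ratio scaling, though Dlo_019544.1 was at 15.5 FPKM in root and 479 FPKM in stem. Of the 34 measured genes listed as orphans, 10 were higher in root and 7 in stem, against 5 and 6 with a pseudocount of 5 FPKM.

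The remaining 37 types held 144 measured genes, of which 37 were higher in root and 23 in stem. These counts were close to the shares of all measured genes, 22.3% in root and 17.8% in stem. In 14 of the 37 types no gene passed the limit, and 3 of these 14 had no measured gene.

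Small types on the root side were AP2, OFP and SRS. The AP2 type, which includes the PLETHORA factors of the Arabidopsis root stem cell niche, had 6 of 9 measured genes higher in root and none in stem. Dlo_000444.1 was at 52.2 FPKM in root and 4.28 FPKM in stem, and Dlo_028976.1 was at 29.7 FPKM in root and 0.57 FPKM in stem. The OFP (ovate family) repressors had 5 of 6 measured genes higher in root, and their sum was 132 FPKM in root and 11.3 FPKM in stem. Most of that sum came from Dlo_012996.1, at 60.1 FPKM in root and 1.17 FPKM in stem, and Dlo_030940.1, at 50.8 FPKM in root and 1.28 FPKM in stem. Both were highest in root among the 9 tissues. Of 5 SRS genes 4 were higher in root, the one with the highest level being Dlo_027958.2 with 42.5 FPKM in root and 14.1 FPKM in stem. The CPP and TUB types each had 3 genes higher in root and none in stem. The cell cycle type E2F-DP had Dlo_012375.1 at 20.6 FPKM in root and 3.03 FPKM in stem and 3 further genes under the limit.

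Among subunits of the trimeric NF-Y factors, 3 of 7 NF-YA genes were higher in root and 1 in stem. Dlo_011719.1 was at 51.9 FPKM in root and 9.54 FPKM in stem, and Dlo_027557.2 at 73.4 FPKM in root and 26.3 FPKM in stem. The NF-YB type had 2 of 8 genes higher in root and NF-YC 1 of 6 in each direction. Cytokinin response regulators (ARR-B) had 3 of 8 genes higher in root and 1 in stem, among the former Dlo_015483.1 with 57.1 FPKM in root and 13.1 FPKM in stem.

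Small types on the stem side were YABBY, CO-like, EIL, CAMTA and RAV. The RAV type had 2 of 3 measured genes higher in stem and 1 in root. This RAV gene higher in root, Dlo_001192.1, was at 23.7 FPKM in root and 6.89 FPKM in stem. The YABBY gene Dlo_010752.1 was listed at 0 in root and was at 35.0 FPKM in stem, while pulp had 274 FPKM. Dlo_019359.1 was at 2.24 FPKM in root and 25.9 FPKM in stem, Dlo_027352.1 at 2.81 and 13.1 FPKM, and Dlo_023494.1 at 0.28 and 1.58 FPKM. The CO-like gene Dlo_010808.1, of a type tied to light and day length, was at 0.25 FPKM in root and 24.3 FPKM in stem, and its highest level was in leaf. Of the EIL factors, which carry the ethylene signal, Dlo_014864.2 was at 188 FPKM in root and 469.7 FPKM in stem. Dlo_002429.1 was at 21.4 and 46.4 FPKM, and Dlo_030832.1, at 177 and 236 FPKM, did not reach the limit. All 5 CAMTA genes, calmodulin-binding factors, had higher values in stem, but only Dlo_024994.1 (44.5 FPKM in root, 130 FPKM in stem) and Dlo_009382.1 (13.9 and 29.2 FPKM) passed the limit.

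Some genes were measured in 1 organ and listed at 0 in the other. Of the 1155 measured transcription factor genes, 73 were at 1 FPKM or more in root and listed at 0 in stem. Another 59 were at 1 FPKM or more in stem and listed at 0 in root. Over all 20203 measured genes these numbers were 874 and 711. A listing at 0 does not show that a gene is silent, since the fragments behind 1 FPKM are unknown. Among the 73 genes the MYB type gave 8 of its 86 measured genes, bHLH gave 8 of 79 and the M-type 7 of 19. Among the 59 genes the ERF type gave 8 of 89, NAC gave 7 of 70 and B3 gave 7 of 43.

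Over all measured genes, 20.2% had their highest level in root and 7.63% in stem. Of the 325 transcription factor genes higher in root, 194 (59.7%) had their highest level in root. Of the 319 higher in stem, 81 (25.4%) had their highest level in stem, followed by 66 in leaf and 61 in pericarp. Among all genes past the limit the shares were 59.8% for root and 22.9% for stem. These shares use the root and stem values that chose the sets, so they are a description only. In 76 of the 319 genes root was below all other tissues, beside 818 of the 3604 genes of any kind higher in stem, a similar share.

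Median levels in the other 7 tissues, whose values did not choose the sets, differed between them. The transcription factor genes higher in root had a median of 16.1 FPKM in root and 1.73 FPKM in stem, and between 0.14 FPKM in pulp and 2.79 FPKM in young fruit elsewhere. Those higher in stem had a median of 36.8 FPKM in stem and 4.44 FPKM in root, with 25.9 FPKM in leaf, 24.2 FPKM in young fruit, and 23.9 FPKM in pericarp, but 7.98 FPKM in seed and 2.70 FPKM in pulp. The 45 ERF genes higher in stem had a median of 138 FPKM in stem, 4.44 FPKM in root and 51.6 FPKM in pericarp, the next highest tissue. For the 24 WRKY genes the medians were 128 FPKM in stem, 13.8 FPKM in root and 114 FPKM in pericarp. The 36 MYB genes higher in root had a median of 21.3 FPKM in root and at most 4.70 FPKM in any other tissue. By contrast, the 24 HB genes higher in root had 30.0 FPKM in root and 12.9 FPKM in seed, and the 18 LOB genes had 9.18 FPKM in root and 8.98 FPKM in flower bud.

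**Figure D5:**
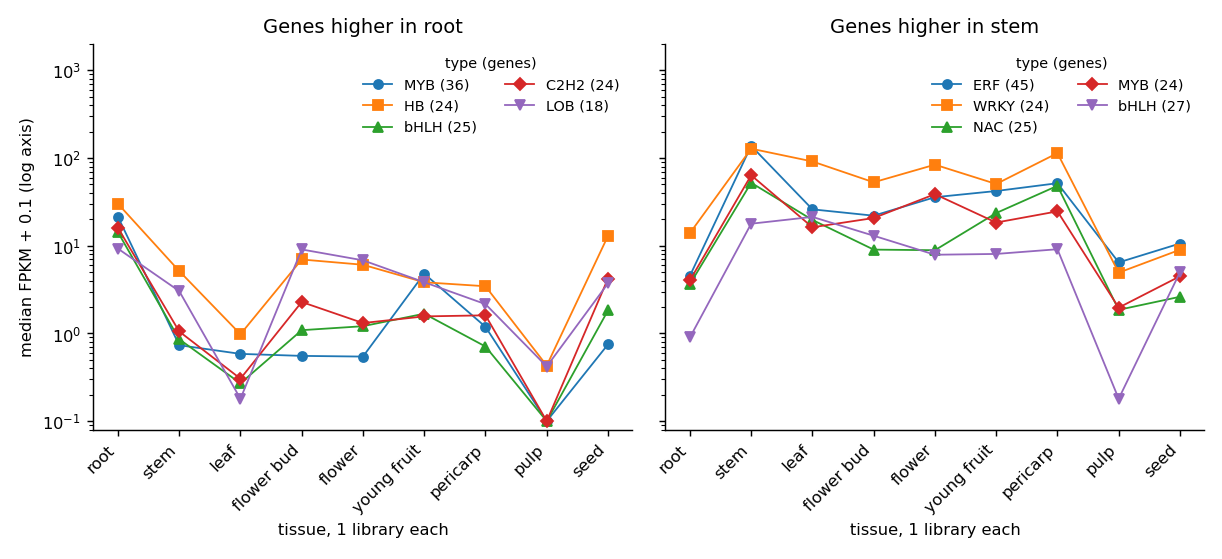
Median FPKM (with 0.1 added, log axis) in each of the 9 tissues for transcription factor genes at least 2-fold higher in root (left) and in stem (right), by type, with the number of genes in parentheses and 1 library per tissue. The genes were chosen by their root and stem values, so only the other 7 tissues are free of that choice. On the left, root stands above most tissues, with LOB in flower bud (8.98 FPKM) close to root (9.18 FPKM), and on the right leaf, flower and pericarp stay near the stem level for WRKY.

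Outside the transcription factors, the largest differences of all were toward root. Dlo_004754.1 was at 3438 FPKM in root and 0.59 FPKM in stem, a difference of 11.08, and it stayed below 1 FPKM in every tissue except root. Dlo_009867.1 was at 2567 FPKM in root and 0.42 FPKM in stem, and Dlo_009866.1 was at 967 FPKM in root and listed at 0 in stem. Dlo_023827.1 was at 3527 FPKM in root and 1.59 FPKM in stem. None of these 4 genes carries an annotation in the lists used here. Toward stem the largest difference was that of Dlo_019847.1, at 2.47 FPKM in root and 2081 FPKM in stem, and Dlo_019846.1 was at 1.34 FPKM in root and 841 FPKM in stem. Both were also high in young fruit, at 1938 and 852 FPKM. The gene with the highest stem level, Dlo_008311.1, was at 307 FPKM in root and 11545 FPKM in stem.

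Gene families outside the transcription factors came from the study's list of families that grew or shrank in longan, which was not made from expression and is held here in part. Of 128 measured genes in 30 families, 40 were higher in root and 42 in stem, beside 22.3% and 17.8% of all genes. All 3 major latex protein-like genes were higher in root, with a summed level of 4451 FPKM in root and 13.2 FPKM in stem. The largest of them, Dlo_011469.1, was at 2797 FPKM in root and 10.2 FPKM in stem, and reached 14591 FPKM in pulp. Dlo_011467.1 was at 1228 FPKM in root and 2.30 FPKM in stem. Kunitz trypsin inhibitors, which can block digestive proteases of insects, were divided among 7 measured genes, with 2 higher in root and 3 in stem. Dlo_019810.1 was at 7194 FPKM in root and 1829 FPKM in stem, whereas Dlo_019788.1 was listed at 0 in root and was at 500.5 FPKM in stem, and Dlo_019801.1 was at 0.39 FPKM in root and 434 FPKM in stem. Dlo_019810.1 had the highest level of these 3 genes in both organs, and the other pair was near or at 0 in root.

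Families of glycosyltransferases, which attach sugars to small molecules, also differed from each other. In the UDP-glycosyltransferase 83A family 6 of 8 measured genes were higher in root and 1 in stem, and Dlo_004340.1 was at 140.1 FPKM in root and listed at 0 in stem. In the UDP-glycosyltransferase 71 family none of 9 was higher in root and 4 were higher in stem, the largest being Dlo_007739.1 with 5.11 FPKM in root and 31.0 FPKM in stem. The family that holds the Arabidopsis laccases TT10 and LAC14, copper oxidases that couple phenolic compounds, is mixed, since it also holds HRD1 genes. It had 5 of 10 measured genes higher in root and 4 in stem. Dlo_012772.1 was at 201 FPKM in root and 0.63 FPKM in stem. Dlo_019171.1 was at 199.6 FPKM in root and 738 FPKM in stem, and Dlo_021756.1, annotated as a putative L-ascorbate oxidase, at 14.2 FPKM in root and 235 FPKM in stem. Of the berberine bridge enzyme-like genes, 3 of 8 lay on each side, with Dlo_005691.1 at 147 FPKM in root and 0.10 FPKM in stem. Cell wall invertase, which splits sucrose outside the cell, had Dlo_011663.1 at 2.46 FPKM in root and 218 FPKM in stem. In 3 families, among them polygalacturonase and pectin methylesterase, no listed gene was measured. How reads that match several members of a family were counted is not given in the sources used here, so the division of levels within a family is uncertain.

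A further 816 genes carried domain or enzyme annotations in the study's tables of sequence variation, and 620 of them were measured. Of these, 116 (18.7%) were higher in root and 88 (14.2%) in stem, both below the 22.3% and 17.8% of all measured genes, and the median difference was 0.06. Protein kinase domain genes leaned to stem, with 16 of 42 higher in stem and 8 in root. Bulb-type lectin genes had 5 of 8 higher in stem and none in root. These sets overlap, since Dlo_011255.1, higher in stem, carries both domains. Of the 10 measured genes that the study labelled as leucine-rich repeat receptor-like kinases, 4 were higher in root and 2 in stem. Cytochrome P450 genes had 5 of 10 higher in root and 1 in stem, and genes of kinesins, the motor proteins of microtubules, had 4 of 5 higher in root and none in stem. Pentatricopeptide repeat genes, which edit and process organelle RNA, had 16 of 18 genes under the limit, and all 5 genes with an RNA recognition motif were under it.

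Among these genes were 2 annotated as enzymes of phenylpropanoid and flavonoid synthesis, with higher levels in root. Dlo_002085.1, annotated as cinnamate 4-hydroxylase, the P450 of the entry into phenylpropanoids, was at 1629 FPKM in root and 368 FPKM in stem, and the next highest level after stem was 280.5 FPKM in flower. Dlo_025848.1, annotated as dihydroflavonol 4-reductase, was at 541 FPKM in root and 1.70 FPKM in stem, the largest difference of the annotated genes (7.65). The flower library followed with 80.9 FPKM. Both were chosen after their values were seen from the genes that the rule named. They do not describe the pathway as a whole, since the study's list of pathway genes was not used here. The family labelled cinnamyl alcohol dehydrogenase ELI3 leaned to stem by number of genes. Of its 6 measured genes, 3 were higher in stem and 1 in root. Its summed level did not lean to stem, with 60.87 FPKM in root and 49.75 FPKM in stem. Its gene Dlo_000545.1 was listed at 0 in root and was at 16.5 FPKM in stem, and Dlo_000555.1 was at 57.9 FPKM in root and 4.11 FPKM in stem. Toward stem, the dioxygenase gene Dlo_032762.1 was at 20.7 FPKM in root and 1086 FPKM in stem. Dlo_012423.1, of the proton-dependent oligopeptide transporter family, was at 7.13 FPKM in root and 198 FPKM in stem. The photosystem II gene Dlo_000983.1 (PsbP) was at 0.22 FPKM in root and 22.0 FPKM in stem, with 115 FPKM in leaf and 123 FPKM in seed.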

How the data were processed

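RNA of 9 tissues of cultivar “SJM” was sequenced on an Illumina system (1 library each). Adaptor, low-quality, organelle and ribosomal reads were removed by the authors, who aligned the rest to the longan draft genome with TopHat2 2.0.10 (submitters' processing notes), and deposited FPKM values with 2 decimals. The tool that computed FPKM is not given in the sources used here.

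Each of the 9 value columns was assigned to its tissue by name, and values were used as deposited. The difference was log2((root + 1)/(stem + 1)) with a limit of 1, without a test because each organ had 1 library. As an estimate of relative depth, the most frequent log2 ratio of root to stem was taken among 710 genes with low values. These genes were below 2 FPKM in every tissue and above 0.2 FPKM in root and stem. Ratios within 0.03 on the log2 scale were taken as equal. Counts per gene were not recovered. The functions were tested on simulated data.

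Types of transcription factor genes came from the study's list, of which 82 of 1611 IDs were not matched in the table. Families (30, of which 28 held in part), assigned roles by their Arabidopsis members, and 14 domains came from the study's other supplementary lists. Members and lists were chosen with earlier results of these data known. Named genes were the 15 transcription factor genes with the largest difference in each direction, up to 3 per type and direction past the limit, all members of types with at most 10 listed genes, the 10 largest differences of any gene and the 5 highest levels per tissue, up to 2 per family, domain and direction, and the 10 largest among annotated genes in each direction. The text gives a selection of them, and the genes at 500 FPKM or more were added after the values were seen. Alternatives were a pseudocount of 0.1 or 5 FPKM, a 4-fold limit, a minimum of 5 FPKM, no pseudocount with 1 FPKM or more in both organs, median-ratio scaling, removal of the 10 highest genes of each library, and 1 gene for each set of identical values, the last chosen after seeing the data. The software was Python 3.11.15 with matplotlib 3.10.9, pandas 2.3.3 and numpy 2.4.6.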

Additional observations from a re-analysis of the deposited data

How the results depend on the processing

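With a pseudocount of 5 FPKM, 4996 genes passed the limit, 2777 higher in root and 2219 in stem, and 201 transcription factor genes were higher in root. The 4-fold limit left 3578 genes (1989 in root, 1589 in stem), 335 transcription factor genes (149 and 186), 82 genes of the families and domains, and 107 transcription factor genes both higher and highest in root. Without a pseudocount among genes at 1 FPKM or more in both organs, 415 transcription factor genes remained past the limit, 189 of them higher in root, 7 of the large types had more genes higher in root, 86 genes of families and domains passed, and 105 transcription factor genes were both higher and highest in root; this setting leaves out genes below 1 FPKM in 1 organ. The other counts over all genes, all transcription factor genes, large types and families stayed within 1.5 times, but 106 of 432 counts for single types did not (HB genes higher in root numbered 24, and 11 at 4-fold, and MYB genes 36, and 16 without a pseudocount). With a pseudocount of 0.1 FPKM they were 410 transcription factor genes in root and 387 in stem. Root had 53.4% to 55.8% of all genes past the limit under the settings tried, and 44.5% to 51.4% of the transcription factor genes, so which organ held more of the latter depends on the setting (312 in root and 331 in stem with median-ratio scaling). The side of 9 large types changed under at least 1 setting, among them C2H2, GRAS, C3H, TCP and bZIP. The sides of ERF, WRKY, NAC, MYB, HB and LOB did not, though some became narrow. Without a pseudocount, MYB had 16 genes higher in root and 14 in stem, and NAC had 14 and 16. At 4-fold, LOB had 6 in root and 5 in stem. No named gene past the limit changed sign under the scaling and pseudocount settings, but this is no check of the differences. A pseudocount cannot reverse a sign, and median-ratio scaling moved log2 ratios by only 0.07. No paired analysis was possible because each organ had 1 library. Depth per gene is unknown, and differences of genes near 1 FPKM may rest on few fragments.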

Other observations

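The 2 genes with the highest levels in root, Dlo_016236.1 and Dlo_033229.1, were at 22568 and 15042 FPKM there and at 202 and 124 FPKM in stem. Together they held 3.72% of the root total and 0.0351% of the stem total, and pulp was the only other tissue above 1%, with 3.29%. The ratio between them lay from 1.5 to 2.05 over the 9 tissues, and neither carries an annotation in the lists used here.

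Of the 20203 measured genes, 763 shared all 9 values with another gene of the table, among them 28 transcription factor genes. Counting each set of identical values as 1 gene gave 4393 genes higher in root and 3531 in stem, and 317 and 311 transcription factor genes. Whether these sets are copies that share reads was not tested.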
